A study of Rattus norvegicus with 6 samples.

Results

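Genes of the kinesin, dynein and unconventional myosin motors, with dynein's partner dynactin, were examined in RNA-seq libraries of rat tissue labelled as spinal cord. They were chosen by symbol (*Kif*, *Klc*, *Dync*, *Dynl*, *Dctn* or *Myo* followed by a number or letter) and by a floor of 60 estimated counts summed over the 6 libraries. Of 22050 genes in the table, 84 matched by symbol, 8 kinesins of cell division were left out by name, 8 fell under the floor, and 68 remained. All 68 also passed the filter on low counts. The floor adds up the counts of both groups regardless of condition, and the same counts enter the tests. Just inside it were *Klc3* with 76 counts, *Myo18b* with 117 and *Kif6* with 120. Just outside were *Myo7b* with 50 and *Myo3a* and *Kif14* with 40 each.

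The study compared 3 libraries from rats with spared nerve injury, a partial lesion of the sciatic nerve's branches used as a model of neuropathic pain (SNI-NP rats), with 3 libraries from rats given a sham operation. All were young adult male Sprague–Dawley rats with no allele or agent named for these libraries. The time of tissue collection and the cord segment behind the sequencing were not given in the sources used here, and nothing states that each library came from a different rat, so p-values measure the spread between libraries. The libraries held 16670760 to 18151156 estimated counts, and 0 counts would allow up to 0.165 to 0.18 CPM (each count over its TMM-adjusted library total). This limit stands for 3 counts, uses the unscaled totals and covers counting error only.

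The libraries also held genes of tissue outside the cord. *Scn10a*, a sodium channel of dorsal root ganglion neurons, had 14.3 to 277 CPM. The summed CPM of 4 Schwann cell markers ranged from 18040 to 21589 in the sham group and from 20553 to 27164 in the SNI-NP group. Over 8 dorsal root ganglion markers the ranges were 484 to 1073 and 102 to 1403, and over 8 neuronal markers they were 5510 to 7828 and 2776 to 6751. SNI replicate 1 was the lowest library for both neuron lists. The 7 measured bone marrow and blood markers summed to 337 to 728 CPM in the sham group and 706 to 1493 in the SNI-NP group, highest in SNI replicate 1. *Hbb* made up most of each sum. At an unadjusted edgeR p-value under 0.05, 4 of the 7 were higher, against 4.91% of all genes. In bulk tissue, fewer cells of a type and less RNA per cell cannot be told apart.

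Motor proteins convert ATP into steps along the cytoskeleton. Most transport kinesins walk towards the plus ends of microtubules, which point to the axon tip, and cytoplasmic dynein with dynactin walks back towards the cell body. Myosins move along actin, handling local transport, anchoring and membrane tension. Neurons depend on these motors because their axons and terminals lie far from the site of most protein synthesis.

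Per length of transcript, the most abundant motor genes were the cargo-binding light chain *Klc1* with a mean of 368 FPKM (fragments scaled by transcript length and library depth), the dynein light chains *Dynll1* with 345 and *Dynlrb1* with 334, and *Kif1a*, a carrier of synaptic vesicle precursors, with 169. *Kif5a*, the neuronal kinesin-1 heavy chain, had 135 FPKM and *Kif1b*, a carrier of vesicles and mitochondria, had 118. Lowest were *Myo18b* and the hair cell myosin *Myo15a*, at 0.13 FPKM each. In total, the 68 genes took between 0.803% and 1.04% of each library's counts, least in SNI replicate 1.

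**Figure D1:**
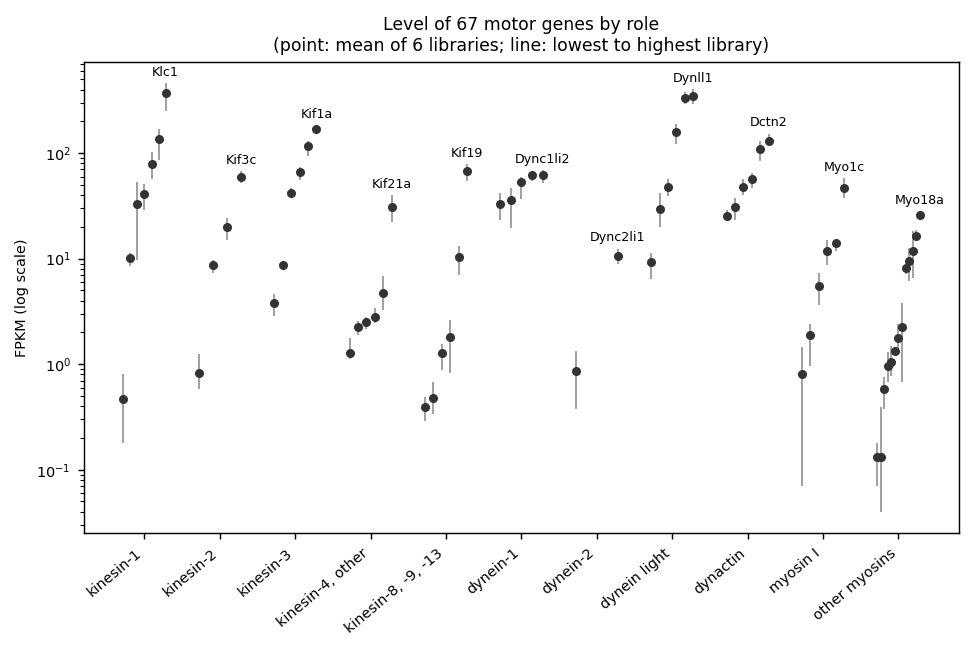
FPKM (log scale) of 67 motor genes grouped by role; each point is the mean of 6 libraries, each line runs from the lowest to the highest library, and the most abundant gene of each role is named. *Klc1*, *Dynll1* and *Kif1a* lead their roles with means of 368, 345 and 169 FPKM.

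The comparison of SNI-NP with sham rats asks which motor genes differed after nerve injury. In edgeR's quasi-likelihood test over 14426 genes, 0 motor genes had an adjusted p-value under 0.05, as had 0% of all genes, and the lowest adjusted p-value was 0.117 among the motor genes. An unadjusted p-value under 0.05 was reached by 12 of 68 (17.6%), against 10.8% of all genes. Of these, *Myo1c*, *Kif18b*, *Kif19* and *Myo7a* were higher in the SNI-NP group (4, or 5.88%, against 4.91% of all genes). *Myo5a*, *Dynlt3*, *Kif3a*, *Kif21a*, *Kif2a*, *Kif5c*, *Myo9a* and *Kif5b* were lower (8, or 11.8%, against 5.94%). Each is described with its value adjusted over all genes. In 8 motor genes all 3 SNI-NP libraries lay above all 3 sham libraries (11.8%, against 10.4%), and in 8 all lay below (11.8%, against 8.15%). The median log2 fold change of the 68 genes was -0.01, and that of all genes was 0.01.

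How many genes passed depended on the test. DESeq2 gave an adjusted p-value under 0.05 to *Myo5a* (1.08e-09), *Dynlt3* (0.00664) and *Kif3a* (0.0325), 3 of 68 (4.41%) against 1.31% of all genes. With edgeR and without SNI replicate 1, *Myo5a*, *Kif5b* and *Myo9a* passed (4.41%), against 1.52% of all genes. Motor transcripts were long, with a median of 3803 bases against 2272 for all genes. With offsets that level each library's counts over transcript length, 9 motor genes were higher (13.2%, against 9.03% of all genes) and 6 lower (8.82%, against 4.9%), at an unadjusted p-value under 0.05. With limma on FPKM, 2 were higher (2.94%, against 3.36% of all genes) and 9 lower (13.2%, against 8.27%).

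**Figure D2:**
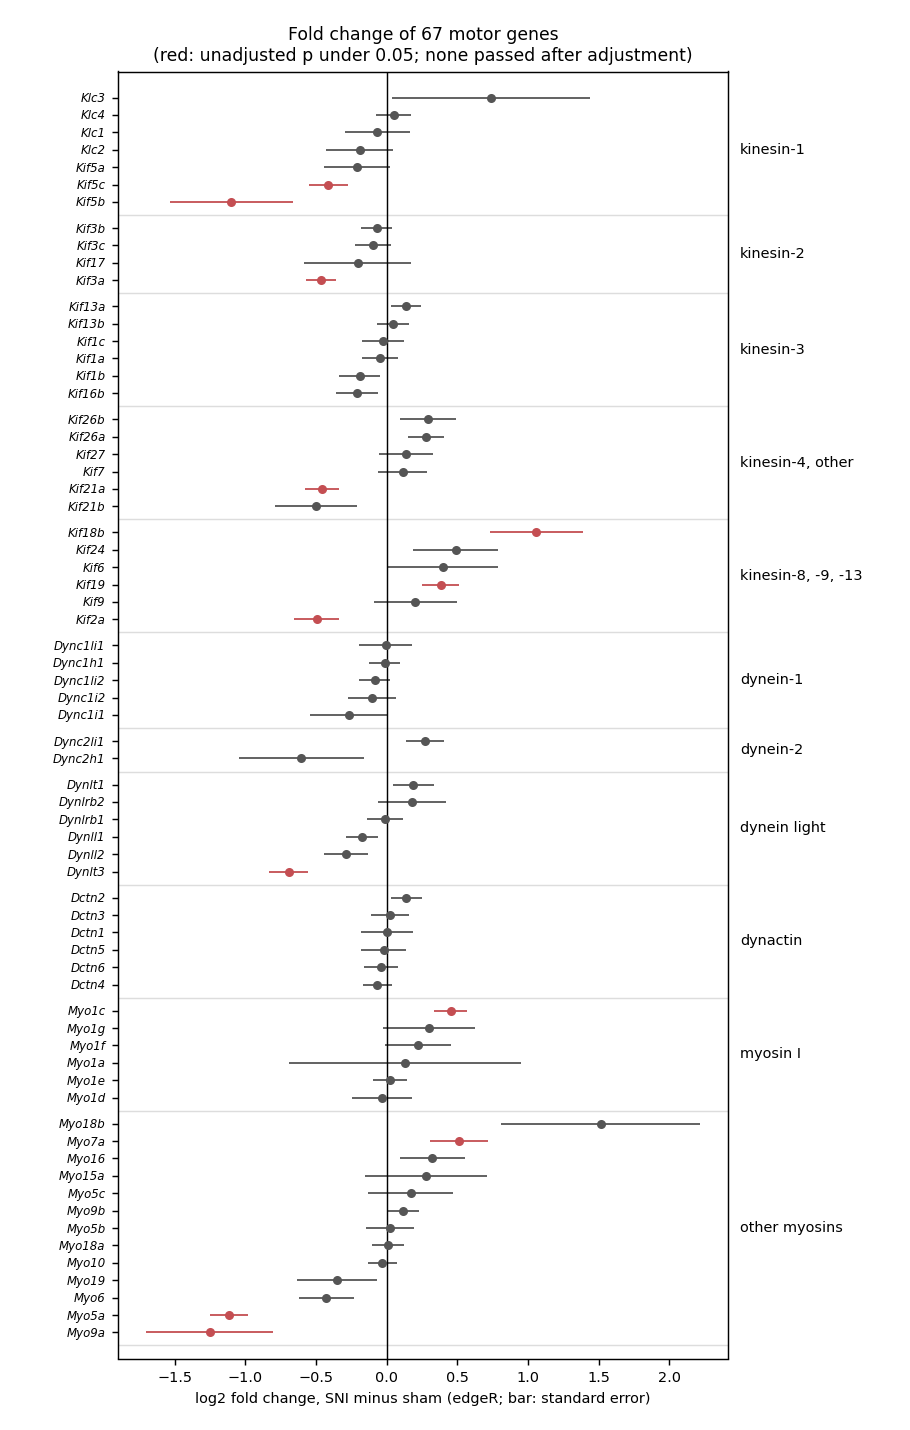
edgeR log2 fold change (SNI minus sham, x axis) of 67 motor genes grouped by role, with bars for 1 standard error and red for an unadjusted p-value under 0.05. *Myo9a*, *Myo5a* and *Kif5b* lie lowest among the red points and *Kif18b* highest, while the dynactin genes lie close to 0.

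*Myo5a*, which encodes the actin motor that carries organelles and vesicles into dendrites and terminals, had the smallest p-value of the 68. Its level was 83.3, 83.8 and 101.9 CPM in the sham group and 46.2, 36.3 and 41.6 CPM in the SNI-NP group. The groups did not overlap, and the mean of the injured libraries was 0.461 times that of the sham libraries. The log2 fold change was -1.12 (SE 0.13, edgeR adjusted p = 0.117). Its relative *Myo5b*, a carrier of recycling endosomes, was at 9.52 ± 0.27 CPM in the sham group and 9.67 ± 1.44 in the SNI-NP group (SD, n = 3), a log2 fold change of 0.02 (SE 0.17).

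*Myo9a*, a myosin with a domain that switches off small GTPases, was at 24.1, 30.2 and 25.3 CPM in the sham group and 20.5, 5.61 and 7.3 CPM in the SNI-NP group. SNI replicate 1 lay just under the sham range and the other two far below it. The log2 fold change was -1.25 (SE 0.45, edgeR adjusted p = 0.436), and -2.04 without SNI replicate 1 (adjusted p = 0.0121). Of the 6 fits that leave out 1 library, 3 passed the unadjusted threshold, and it was lost without sham replicate 2 (-1.16), SNI replicate 2 (-0.93) or SNI replicate 3 (-1.07). *Myo6*, the myosin that walks towards the minus end of actin, was at 76.3 to 99.2 CPM in the sham group and at 79.7, 48.1 and 62.1 CPM in the SNI-NP group (log2 fold change -0.43, SE 0.20, edgeR adjusted p = 0.478).

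*Myo1c*, a class I myosin that links membranes to actin, was higher. Its level was 144, 158 and 145 CPM in the sham group and 229, 182 and 201 CPM in the SNI-NP group, with no overlap. The log2 fold change was 0.45 (SE 0.12, edgeR adjusted p = 0.348). The 4 Schwann cell markers summed to 21107, 21589 and 18040 CPM in the sham group and 27164, 20553 and 26557 in the SNI-NP group. These sums shared the order of the SNI-NP libraries with *Myo1c*, but not that of the sham libraries. *Pmp22*, the largest of the 4, was nearly equal in SNI replicates 1 and 3 (20503 and 20524 CPM). The part of Schwann cells in the value of *Myo1c* was not tested. The other 6 class I myosins had unadjusted p-values above 0.05, among them *Myo1d* with a log2 fold change of -0.03 (SE 0.21) and *Myo1f*, expressed in leukocytes, with 0.22 (SE 0.23). *Myo7a*, known from hair cells, was low but above all sham libraries in each SNI-NP library (4.62, 5.3 and 6.23 CPM against 7.3, 6.78 and 8.93; log2 fold change 0.51, SE 0.20, edgeR adjusted p = 0.445). It passed unadjusted in 2 of 6 fits that leave out 1 library. *Myo10*, the filopodial myosin, had a log2 fold change of -0.03 (SE 0.10), and *Myo18a*, the most abundant of the non-class I myosins with 26.2 FPKM, one of 0.01 (SE 0.11). *Myo18b*, a muscle myosin, was at 0.36, 0.96 and 0.41 CPM in the sham group and 0.98, 0.72 and 3.3 in the SNI-NP group, while the summed level of 4 skeletal muscle markers was 11, 66 and 27.7 CPM and then 148, 9.83 and 394 CPM. The part of muscle in the value of *Myo18b* was not tested.

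The kinesin-1 group, which pulls vesicles and mitochondria outward along axons, held 2 genes of 7 past the unadjusted threshold, against 10.8% of all genes. Both were heavy chains and both were lower (against 5.94% of all genes), numbers too small to set apart from these shares. *Kif5c*, a neuronal heavy chain, was at 257, 208 and 267 CPM in the sham group and 158, 196 and 196 CPM in the SNI-NP group, without overlap (log2 fold change -0.41, SE 0.14, edgeR adjusted p = 0.436). It was -0.24 with length offsets, where it no longer passed unadjusted, and 3 of 6 fits that leave out 1 library passed. *Kif5b*, the heavy chain found in most cells, was at 136, 173 and 142 CPM in the sham group and at 124, 32.4 and 53.9 CPM in the SNI-NP group. SNI replicate 1 was close to the sham rats, while the other two were far below. Its log2 fold change was -1.10 (SE 0.44, edgeR adjusted p = 0.445), and -1.80 without SNI replicate 1 (adjusted p = 0.0214). Of the 6 fits that leave out 1 library, only that one passed the unadjusted threshold, and the log2 fold change was -0.75 without SNI replicate 2.

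*Kif5a* was at 787, 576 and 869 CPM in the sham group and 458, 810 and 663 CPM in the SNI-NP group. The groups overlapped, with SNI replicate 1 lowest and sham replicate 2 second lowest, and the log2 fold change was -0.21 (SE 0.24). *Klc2*, a light chain, had a log2 fold change of -0.19 (SE 0.24). *Klc1* had the same 2 libraries lowest in the same order (741, 671 and 910 CPM against 513, 950 and 752; log2 fold change -0.07, SE 0.23), as did the dynein intermediate chain *Dync1i1* (103, 82.1 and 124 CPM against 53.9, 115 and 88.2; log2 fold change -0.26, SE 0.28). SNI replicate 1 and sham replicate 2 also had the lowest summed level of the 8 neuronal markers, 2776 and 5510 CPM, with SNI replicate 3 close at 5540 CPM. The order differed between markers, and *Snap25* was lowest in SNI replicate 2 and *Eno2* in sham replicate 2. At the unadjusted threshold 2 of the 8 were lower (against 5.94% of all genes) and 0 higher (against 4.91%). These were *Snap25* (log2 fold change -0.65, edgeR adjusted p = 0.436) and *Nefm* (-0.82, edgeR adjusted p = 0.443), while *Tubb3* had 0.20 and *Stmn2* 0.11. The median was -0.24 over the 8, and -0.65 over 5 tested motor neuron markers, of which 0 were called and *Prph* had 0.40. Over the dorsal root ganglion markers SNI replicate 1 was also lowest (102 CPM), but sham replicate 1 came next (484 CPM). *Kif3a*, *Kif21a* and *Kif5c* were likewise lowest in SNI replicate 1, whereas *Myo5a*, *Dynlt3* and *Kif2a* were lowest in SNI replicate 2. The part of neuron content in these values was not tested. In all, 21 of the 68 motor genes (30.9%) had their lowest level in SNI replicate 1, against 17.1% of all tested genes.

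**Figure D3:**
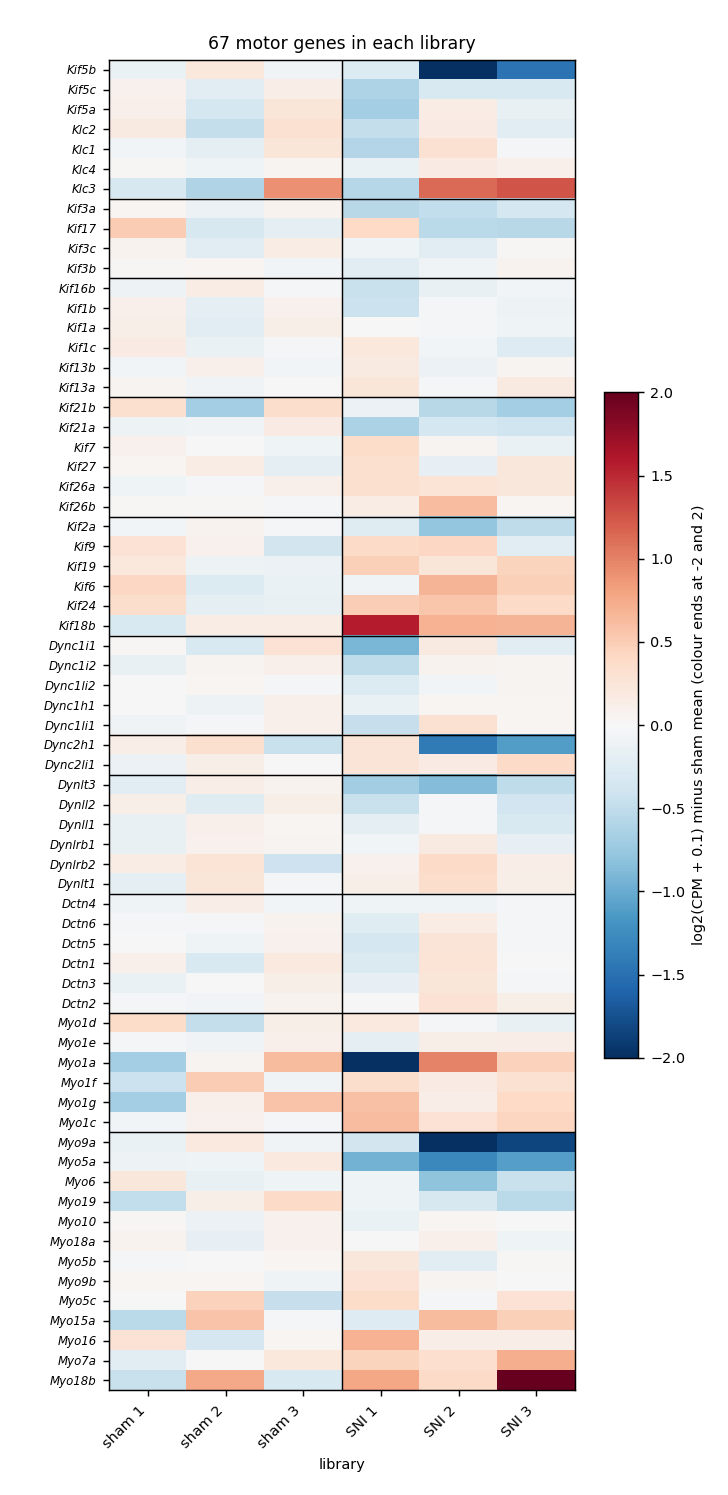
Heat map of log2(CPM + 0.1) minus the sham mean for 67 motor genes (rows, grouped by role) in each of 6 libraries (columns); blue is lower and red higher than the sham mean. *Kif5b*, *Myo9a* and *Dync2h1* are clearly blue only in SNI replicates 2 and 3, whereas *Myo5a* and *Dynlt3* are blue in all 3 SNI-NP libraries.

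The kinesin-2 motor, which works in cilia and in axonal transport, is built of a *Kif3a* chain paired with *Kif3b* or *Kif3c*. *Kif3a* was at 69.8, 62.7 and 71.2 CPM in the sham group and 46.1, 48.3 and 53.1 CPM in the SNI-NP group. All 3 injured libraries lay below the sham libraries (log2 fold change -0.47, SE 0.10, edgeR adjusted p = 0.323). Its partners overlapped between the groups. *Kif3b* had a log2 fold change of -0.07 (SE 0.11, edgeR adjusted p = 0.834), *Kif3c* one of -0.09 (SE 0.13), and *Kif17*, a separate kinesin-2 of dendrites, one of -0.21 (SE 0.38). *Myo5a* had the smallest p-value of the 68, and *Kif3a* and *Kif3b* are partners in 1 motor, of which only *Kif3a* passed the unadjusted threshold. For this reason the 250 bases before their starts are given. They come from RefSeq on the GRCr8 build and read 5′ to 3′ on the plus strand at chr8:84692699-84692948, chr10:38226520-38226769 and chr3:162218438-162218687. Capitals mark matches on either strand to the GC box (letters GGGCGG), the box named CCAAT for its letters, or the TATA box (letters TATAAA).
*Myo5a*: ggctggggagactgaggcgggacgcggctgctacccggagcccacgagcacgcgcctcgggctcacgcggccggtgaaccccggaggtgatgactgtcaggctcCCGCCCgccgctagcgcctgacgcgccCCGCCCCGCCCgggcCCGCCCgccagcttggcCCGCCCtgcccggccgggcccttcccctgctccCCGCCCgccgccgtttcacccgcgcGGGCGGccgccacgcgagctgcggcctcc
*Kif3a*: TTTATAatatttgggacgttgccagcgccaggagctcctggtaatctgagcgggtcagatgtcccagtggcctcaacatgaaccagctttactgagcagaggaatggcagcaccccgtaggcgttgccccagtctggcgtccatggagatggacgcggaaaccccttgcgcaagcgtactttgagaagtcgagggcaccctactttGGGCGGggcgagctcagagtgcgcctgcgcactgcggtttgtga
*Kif3b*: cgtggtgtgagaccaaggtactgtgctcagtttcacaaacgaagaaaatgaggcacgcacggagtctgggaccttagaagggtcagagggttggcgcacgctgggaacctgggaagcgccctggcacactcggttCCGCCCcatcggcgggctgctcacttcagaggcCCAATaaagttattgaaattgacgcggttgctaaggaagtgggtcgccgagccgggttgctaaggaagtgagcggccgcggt

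The *Myo5a* window held 7 GC boxes and 80.8% G and C, that of *Kif3a* held 1 GC box and 1 TATA box, and that of *Kif3b* held 1 GC box and 1 CCAAT box. A promoter was matched to 54 of the 68 genes, of which 37 held a GC box, 18 a CCAAT box and 5 a TATA box. Among all 33469 promoters of that length, 30.5%, 34% and 12.9% held them. The median G and C share was 63.6% for the motor genes and 51.2% for all. These matches are letters in a window and not measured sites.

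Kinesin-3 motors, the fast carriers of synaptic and dense core vesicles, had 0 of 6 genes past the unadjusted threshold. That number is too small to set apart from the 10.8% of all genes. *Kif1a* ranged from 838 to 1056 CPM in the sham group and from 923 to 984 in the SNI-NP group, a log2 fold change of -0.05 (SE 0.13). *Kif1b* had a log2 fold change of -0.19 (SE 0.15) and *Kif13b* one of 0.04 (SE 0.11).

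*Kif21a*, a kinesin-4 that restrains microtubule growth, was at 161, 164 and 192 CPM in the sham group and 111, 135 and 130 CPM in the SNI-NP group, without overlap. The log2 fold change was -0.46 (SE 0.12, edgeR adjusted p = 0.351), and -0.31 with length offsets, where its adjusted p-value was 0.41 and it no longer passed unadjusted. *Kif21b* had a fold change of similar size with a larger error (-0.50, SE 0.29), and its groups overlapped. *Kif2a*, which takes microtubules apart at their ends, was at 24.4, 26.8 and 25.1 CPM in the sham group and 21.4, 14.8 and 17.9 CPM in the SNI-NP group (log2 fold change -0.50, SE 0.16, edgeR adjusted p = 0.436).

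*Kif19*, a kinesin-8 of motile cilia, was at 236, 191 and 188 CPM in the sham group and 283, 240 and 278 CPM in the SNI-NP group. The gap between the groups was small beside the spread within them (log2 fold change 0.38, SE 0.13, edgeR adjusted p = 0.436), and it passed unadjusted in 2 of 6 fits that leave out 1 library. *Kif19* also shared the order of the SNI-NP libraries, but not that of the sham libraries, with the summed Schwann cell markers given above. The part of these markers was not tested. The 6 measured ependymal and ciliary markers summed to 46.2 to 62.2 CPM in the sham group and 47 to 59.5 in the SNI-NP group. In the RefSeq annotation of GRCr8 the span of *Kif19* overlaps *Btbd17* and that of *Kif2a* overlaps *Dimt1*, both protein-coding. The spans of *Kif21a*, *Kif5c*, *Kif5b* and *Myo9a* overlap long noncoding RNA loci, and that of *Myo9a* also pseudogenes. Such spans include introns and are not from the build used for counting, where the use of strand was not given. Whether reads from these neighbours entered the counts is therefore not known.

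*Kif18b*, a kinesin-8 of the mitotic spindle, was at 1.8, 2.48 and 2.5 CPM in the sham group and 6.84, 3.67 and 3.65 CPM in the SNI-NP group (log2 fold change 1.06, SE 0.33, edgeR adjusted p = 0.435). With limma on FPKM the log2 fold change was 0.33 and it no longer passed unadjusted. The summed level of 6 dividing cell markers was 25.6, 34.7 and 31.6 CPM in the sham group and 60.7, 28.5 and 27.4 CPM in the SNI-NP group, highest where *Kif18b* was highest. At the unadjusted threshold 2 of the 6 were higher (against 4.91% of all genes) and 0 lower. These were *Aurkb* (3.9, 5.07 and 4.13 CPM against 14.7, 15.4 and 7.01, edgeR adjusted p = 0.307) and *Cdk1* (2.58, 2.87 and 3.43 CPM against 7.88, 3.83 and 5.04, edgeR adjusted p = 0.436). *Mki67* was at 9.25, 10.9 and 9.72 CPM in the sham group and 19.2, 2 and 5.51 CPM in the SNI-NP group. *Top2a* was at 4.62, 8 and 7.33 CPM and then 11.8, 3.11 and 4.12 CPM. Both lay above all sham libraries in SNI replicate 1 and below all of them in SNI replicates 2 and 3, unlike *Kif18b*. *Bub1* had a log2 fold change of -0.91 (SE 0.49) and *Ccnb1* one of 0.05 (SE 0.24). Without SNI replicate 1 the log2 fold change of *Kif18b* was 0.69 (edgeR adjusted p = 0.367). Of the 8 mitotic kinesins left out by the rule, *Kif22* (log2 fold change 0.79, edgeR adjusted p = 0.406) and *Kif2c* (0.82, adjusted p = 0.436) were higher at the unadjusted threshold (against 4.91% of all genes). None was lower (against 5.94%), and 8 genes are too few to set apart from these shares. The summed bone marrow and blood markers, mostly *Hbb*, were also highest in SNI replicate 1 (495, 337 and 728 CPM against 1493, 808 and 706). *Alas2*, *Mpo*, *S100a8* and *S100a9* were highest there too. *Elane* was highest in SNI replicate 3 (5.8 CPM) and *Cd79b* in SNI replicate 2 (5.05 CPM). The part of dividing or blood cells in the value of *Kif18b* was not tested.

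**Figure D4:**
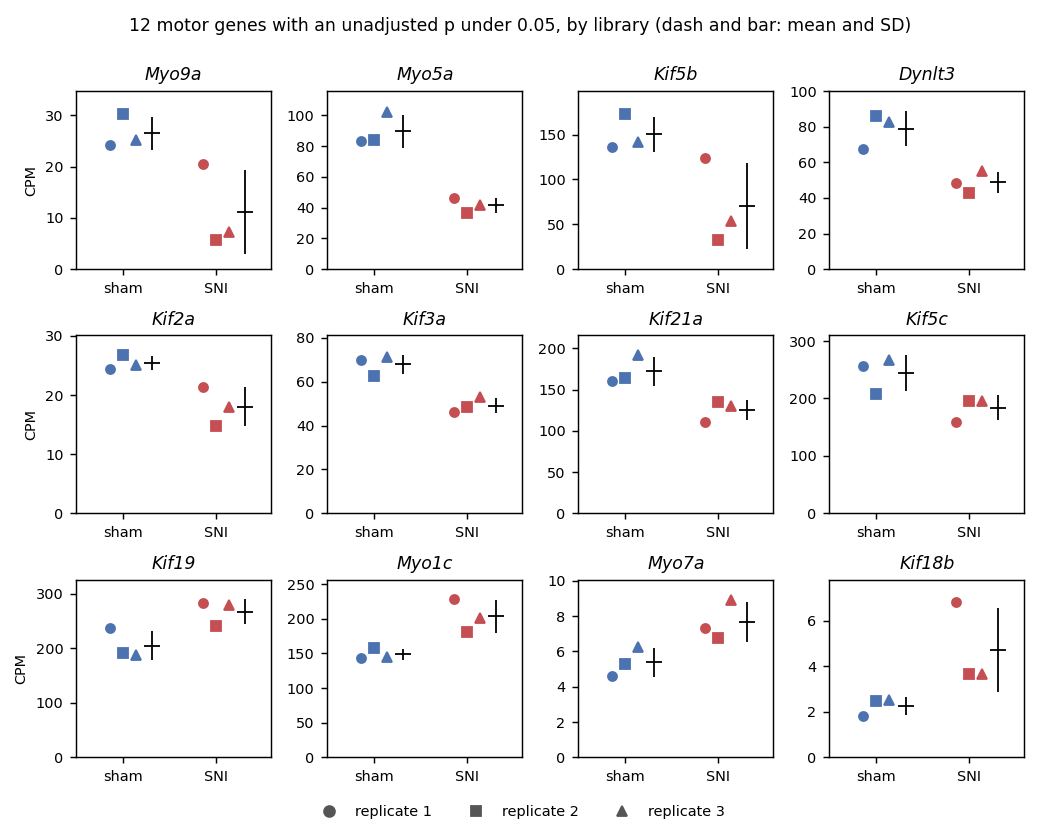
CPM (y axis, from 0) in each sham and SNI library for the 12 motor genes with an unadjusted p-value under 0.05, with the mean and SD beside the points. In each panel the groups do not overlap; in *Kif5b* and *Myo9a* SNI replicate 1 lies close to the sham libraries.

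*Dync1h1*, the heavy chain that holds the motor domain, ranged from 817 to 940 CPM in the sham group and from 807 to 909 in the SNI-NP group (log2 fold change -0.01, SE 0.11, edgeR adjusted p = 0.974). The count past the unadjusted threshold was 0 of 5 for the heavy, intermediate and light intermediate chains and 0 of 6 for dynactin, numbers too small to set apart from the 10.8% of all genes. *Dync1i2* had a log2 fold change of -0.11 (SE 0.17), *Dync1li1* one of -0.01 (SE 0.19), *Dync1li2* one of -0.09 (SE 0.11), *Dctn1*, the largest dynactin subunit, one of 0.00 (SE 0.18), and *Dctn2* one of 0.14 (SE 0.11).

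Among the 6 dynein light chains, *Dynlt3* stood apart. It was at 67.8, 86.4 and 82.5 CPM in the sham group and 48.6, 42.9 and 55 CPM in the SNI-NP group, with no overlap (log2 fold change -0.69, SE 0.14, edgeR adjusted p = 0.294). Its relative *Dynlt1* was at 32.8 ± 5.08 CPM in the sham group and 37.3 ± 3.55 in the SNI-NP group (SD, n = 3), a log2 fold change of 0.19 (SE 0.14). *Dynll1* had a log2 fold change of -0.17 (SE 0.12), *Dynll2* one of -0.29 (SE 0.15) and *Dynlrb1* one of -0.01 (SE 0.13). Of the dynein-2 motor, which returns cargo in cilia, *Dync2h1* was at 14.3, 16.3 and 9.66 CPM in the sham group and 15.6, 4.89 and 6.03 CPM in the SNI-NP group (log2 fold change -0.60, SE 0.44, edgeR adjusted p = 0.616), and -1.30 without SNI replicate 1 (adjusted p = 0.0756). *Dync2li1*, its light intermediate chain, had a log2 fold change of 0.27 (SE 0.14).

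Ratios between related genes within a library were compared for 10 pairs, chosen after their values were seen. An exact two-sided permutation test of 3 against 3 libraries cannot go below p = 0.1. The log2 ratio of *Myo5a* to *Myo5b* was 3.23 ± 0.13 in the sham group and 2.10 ± 0.04 in the SNI-NP group (SD, n = 3, exact permutation p = 0.1, adjusted p = 0.25). The ratio of *Kif3a* to *Kif3b* was 0.43 ± 0.15 and 0.04 ± 0.06, and that of *Kif3a* to *Kif3c* differed by -0.38. *Dynlt3* to *Dynlt1* differed by -0.89. The groups did not overlap in these 4 pairs, and each had the smallest p the test allows. *Myo5a*, *Dynlt3* and *Kif3a* already lay apart between the groups on their own, so these p-values are no independent support. In the other 6 they overlapped, among them *Kif5c* to *Kif5a* with a difference of -0.18 (exact permutation p = 0.4, adjusted p = 0.625) and *Kif21a* to *Kif21b* with -0.01 (p = 1).

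**Figure D5:**
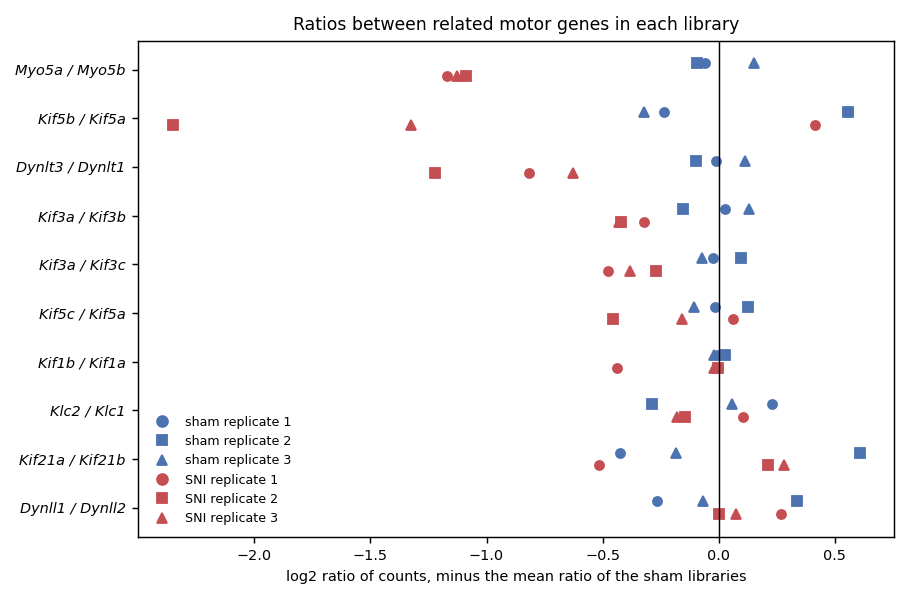
Log2 ratio of counts between related motor genes in each library, minus the mean ratio of the sham libraries (x axis), with blue for sham, red for SNI and shapes for replicates. The SNI-NP libraries lie apart from the sham libraries for *Myo5a* to *Myo5b*, *Dynlt3* to *Dynlt1*, *Kif3a* to *Kif3b* and *Kif3a* to *Kif3c*. All pairs were chosen after their values were seen.

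Of 44 genes for motor adaptors and regulators, 41 were tested. At the unadjusted threshold 0 were higher (against 4.91% of all genes) and 4 lower (against 5.94%), numbers too small to set apart from these shares. *Pafah1b1*, which encodes the dynein regulator LIS1, was at 355, 359 and 349 CPM in the sham group and 256, 186 and 253 CPM in the SNI-NP group (log2 fold change -0.61, edgeR adjusted p = 0.328). *Bicd1*, which links dynein to cargo, was at 11.6, 12.9 and 13.9 CPM and then 8.45, 3.11 and 3.88 CPM (log2 fold change -1.31, edgeR adjusted p = 0.373). The others were *Capza2*, an actin capping subunit also found in dynactin (-0.33), and *Kidins220*, a kinesin-1 cargo at the membrane (-0.28). *Kifap3*, the cargo-binding partner of *Kif3a*, had a log2 fold change of -0.25 (edgeR adjusted p = 0.593). The median log2 fold change of the tested genes of this list was -0.08, against 0.01 for all genes.

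Across the 68 motor genes, 56 had an unadjusted p-value of 0.05 or more, and 35 of these had a fitted log2 fold change under 0.2 in size. The standard errors ranged from 0.10 to 0.82 with a median of 0.16, and a p-value that misses the threshold does not show equal levels.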

How the data were processed

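Estimated counts per gene and FPKM values were deposited by the authors for 3 sham and 3 SNI-NP libraries. Reads were mapped to a genome the authors call Rat6; the labels' processing notes name FastQC, STAR and HTSeq without versions, and the annotation release and strand setting are not given in the sources used here. The estimated counts deposited by the authors are not normalized, and 2018 rows hold a value that is not whole; they were rounded. FPKM values deposited by the authors served for levels and transcript lengths.

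Genes were filtered with filterByExpr, scaled by TMM and compared (SNI against sham) with the quasi-likelihood test of edgeR 4.0.16 (R 4.3.3), with Benjamini-Hochberg adjustment across 14426 genes. Biological variation between libraries was 0.223 (edgeR's common coefficient of variation). DESeq2 1.42.0, limma 3.58.1 on log2(FPKM + 0.1), other scalings and filters, a replicate block, loess offsets on transcript length (span 0.5) and leaving out each library were alternatives. The fits were tested on simulated data. The depth of 16670760 to 18151156 counts leaves low genes imprecise. Motifs were searched in RefSeq promoters of GRCr8, whose coordinates were not mixed with those of the files.

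Named genes were every member with an unadjusted p-value under 0.05, a list of main transport genes, the most abundant member of each role and those beside the floor. Other members are named where a list or comparison turns on them, chosen after their values were seen. For 1 member and 1 Schwann cell marker no values are reported here, though the member stays in the counts over all 68. The members and lists were chosen with earlier results of these data known.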

Additional observations from a re-analysis of the deposited data

How the results depend on the processing

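The count of 4 higher motor genes was 9 with length offsets, 8 with length offsets and the replicate block, 2 with limma on FPKM and 2 to 5 when 1 library was left out (2 without SNI replicate 3). The count of 8 lower genes stayed between 6 and 9 in every alternative. Motor genes with an adjusted p-value under 0.05 numbered 3 with DESeq2 and 0 to 3 when 1 library was left out, the 3 being without SNI replicate 1. The median log2 fold change was 0.1013 with length offsets (0.0477 for all genes) and 0.0785 with the replicate block added (0.0452 for all genes). Genes without overlap between groups numbered 10 to 13 (higher) and 8 to 15 (lower) when 1 library was left out, most without SNI replicate 1 and without sham replicate 2, where fewer libraries make overlap rarer. The cause of the other shifts was not tested. Shares of all genes were not counted for overlap or unadjusted calls with 1 library left out, nor with the replicate block. Those counts therefore describe the motor genes only and cannot be set against all genes.

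Libraries with the same replicate number had correlations of 0.214, -0.143 and 0.0538, so the numbers were not taken to pair rats; with the replicate block 3 were higher and 9 lower. Of 600 values of 40 named genes under 15 alternatives, 565 kept their side of the threshold and 0 called values reversed, while 46 values past the threshold in neither fit changed sign. *Myo5a*, *Dynlt3*, *Kif3a*, *Myo1c* and *Kif2a* passed the unadjusted threshold in all 15. *Kif21a* (-0.31) and *Kif5c* (-0.24) did not with length offsets, nor *Kif18b* (0.33) and *Myo7a* (0.42) on FPKM, nor *Myo7a* with the replicate block. Leaving out 1 library ended the call of *Kif19* without sham replicate 2 or 3 or SNI replicate 1 or 3, of *Kif5c* without sham replicate 1 or 3 or SNI replicate 1, of *Myo9a* without sham replicate 2 or SNI replicate 2 or 3, of *Kif5b* without any library but SNI replicate 1, and of *Myo7a* without sham replicate 1 or 2 or SNI replicate 1 or 3. Of the 40, it brought *Kif21b* (-0.77), *Dynll2* (-0.39) and *Myo1f* (0.52) past the threshold without sham replicate 2, *Dynll2* (-0.42) without SNI replicate 2, and *Dync2h1* (-1.30) and *Myo6* (-0.63) without SNI replicate 1. *Myo18b*, not among the 40, also passed without SNI replicate 1 (1.78) and with length offsets (1.75). *Myo6* also passed with DESeq2, the replicate block and limma on FPKM.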
